A study of Arabidopsis thaliana with 12 samples.

Results

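Expansins are proteins of the plant cell wall that loosen the wall at acidic pH without cutting its polymers, so that a cell under turgor can enlarge. Alpha-expansins (EXPA) are the largest group of the family in *Arabidopsis thaliana*, and the beta-expansins (EXPB) and expansin-like genes (EXLA, EXLB) are smaller groups of related proteins. Several alpha-expansins are known for their part in the growth of leaves, stems and roots, and their transcript levels respond to auxin, brassinosteroid, gibberellin and light. The 10 genes described here, *EXPA1*, *EXPA3*, *EXPA4*, *EXPA5*, *EXPA6*, *EXPA8*, *EXPA9*, *EXPA10*, *EXPA11* and *EXPA15*, were chosen by gene identifier as the alpha-expansins of the leaf, out of 37336 genes in the deposited table. These genes, and the other gene lists used below, were chosen with earlier results of these data known. The share of all genes set beside a count of them is therefore a description and no independent test. All 10 were measured in all 12 libraries and passed the requirement of a read in at least 1 library, as did 30388 genes in all.

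RNA-seq was performed on mature leaves pooled from at least 3 soil-grown plants that were 4 weeks old, in 4 groups of 3 biological replicates. They were *rtnlb16-1* under LD (libraries 50 to 52), Col-0 under LD (47 to 49), *rtnlb16-1* under CLL (68 to 70) and Col-0 under CLL (65 to 67). Col-0 is the wild type. The *rtnlb16-1* plants are a single T-DNA line, Salk_122275, with an insertion beside *RTNLB16* that carries CaMV35S enhancer sequence and that removed the start of 1 of its splice forms, so that a second allele does not enter these data. LD stands for 16 h of light and 8 h of dark, as the sample labels give it, while 1 protocol text writes the ratio the other way round. Its intensity was about 80 µmol per second and square metre. CLL stands for continuous low light at about 50 µmol per second and square metre, so that the regimes differ in both photoperiod and intensity. The paper states a lower intensity than this for CLL. All libraries were sequenced in 1 lane. Their numbers form separate blocks for each genotype and regime, so that anything that went with these numbers cannot be told apart from genotype or light regime.

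Each library held 25954730 to 44747661 reads assigned to genes, and each member had at least 103 reads in every library. A normalized count is the number of reads of a gene divided by 1 size factor per library. Each fold change is on the log2(normalized count + 1) scale and was tested with limma, and a gene was called at a Benjamini-Hochberg adjusted p under 0.01 over all 30388 genes. *RTNLB16* (AT3G10915), a reticulon-like gene of the endoplasmic reticulum, had 12665, 7577 and 8231 normalized counts in *rtnlb16-1* under LD, against 769, 876 and 1016 in Col-0. Under CLL it had 2207, 2252 and 1543 in *rtnlb16-1*, against 954, 709 and 640.3 in Col-0. It was higher in every *rtnlb16-1* library, by 3.39 on the log2 scale under LD (adjusted p = 3.09e-07, limma) and by 1.38 under CLL (adjusted p = 0.00346, limma), and the CLL call was lost without library 66, 67, 68 or 69 (adjusted p up to 0.0336, limma) and with 68 and 69 merged (adjusted p = 0.0318, limma). Libraries 68 and 69 differed little more than counting error, with a mean chi-square per gene of 1.78, where counting error alone gives about 1 and the other 11 pairs of replicates gave 24.6 to 141. They were kept as 2 samples, and values with both merged into 1 sample are given where the call of an alpha-expansin, of *RTNLB16* or of a named gene of the wall lists changes.

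*EXPA8* and *EXPA11* had the largest differences between the genotypes among the 10 genes, both lower in *rtnlb16-1* under LD. *EXPA10*, which in *Arabidopsis* promotes the growth of leaves and petioles, and *EXPA15*, which is active at the shoot apex, were higher there. *EXPA5*, known as a brassinosteroid-responsive gene that promotes growth, was lower by a smaller amount. Under LD, 2 of the 10 genes were higher and 3 were lower in *rtnlb16-1*, where 6.67% of all genes tested were called higher and 6.18% lower. Under CLL, 1 of the 10 was higher and none was lower, where 0.846% of all genes were called higher and 0.731% lower. The count of 0 came from limma, with 1 gene lower at an unadjusted p under 0.05, and edgeR and DESeq2 also called 0. The totals over all genes called lower there were 687 of 30388 with edgeR and 717 of 21542 with DESeq2. The LD calls of *EXPA8*, *EXPA11*, *EXPA10* and *EXPA15* held in all alternatives tried, single libraries left out included. The median log2 fold change of the 10 genes was -0.56 under LD, against 0 over all genes, and 0.05 under CLL, against 0.03 over all genes.

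The promoters of the genes with the clearest differences are shown because the genes move in pairs, *EXPA8* with *EXPA11* and *EXPA10* with *EXPA15*. The sequences are the 250 bases before the annotated gene start in RefSeq TAIR10.1, read 5′ to 3′ on the strand of the gene. Capitals mark matches, on either strand, to any of 7 motifs: CACGTG (the G-box), CACATG (an E-box variant bound by phytochrome-interacting factors), TGTCTC and TGTCGG (auxin response elements), CGTGTG and CGTGCG (brassinosteroid response elements) and TTGACC (the only form of the W-box that was searched). They lie at chr2:16950706-16950955 on the minus strand for *EXPA8*, at chr1:6999840-7000089 on the minus strand for *EXPA11*, at chr1:9259182-9259431 on the plus strand for *EXPA10* and at chr2:918672-918921 on the minus strand for *EXPA15*.
EXPA8: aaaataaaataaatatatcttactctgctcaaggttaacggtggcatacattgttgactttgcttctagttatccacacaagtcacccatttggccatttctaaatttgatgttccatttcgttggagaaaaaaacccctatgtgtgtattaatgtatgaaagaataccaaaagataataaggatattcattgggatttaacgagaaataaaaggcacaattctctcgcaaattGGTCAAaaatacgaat
EXPA11: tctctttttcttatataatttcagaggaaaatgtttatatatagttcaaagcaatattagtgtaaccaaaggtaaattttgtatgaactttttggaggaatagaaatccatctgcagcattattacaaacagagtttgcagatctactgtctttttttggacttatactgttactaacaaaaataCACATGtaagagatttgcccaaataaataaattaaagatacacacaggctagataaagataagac
EXPA10: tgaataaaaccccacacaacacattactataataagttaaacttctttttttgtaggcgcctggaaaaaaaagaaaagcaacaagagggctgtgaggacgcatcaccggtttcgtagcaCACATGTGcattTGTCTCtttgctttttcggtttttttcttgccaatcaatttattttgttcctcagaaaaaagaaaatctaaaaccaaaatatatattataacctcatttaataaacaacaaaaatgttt
EXPA15: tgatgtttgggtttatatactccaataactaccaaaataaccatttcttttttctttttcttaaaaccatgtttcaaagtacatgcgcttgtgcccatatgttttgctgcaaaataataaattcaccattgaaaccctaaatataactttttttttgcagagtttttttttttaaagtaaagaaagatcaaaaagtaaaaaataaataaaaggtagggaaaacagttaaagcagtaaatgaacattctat

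The members of each pair shared none of these motifs. *EXPA8* had 1 match, to TTGACC, whose first base lies 16 bases before the gene start, and *EXPA11* had 1 match, to CACATG. *EXPA10* had CACATG on both strands, overlapping in an 8-base palindrome, and TGTCTC 4 bases further on. The *EXPA15* window held no match. Among all 10 genes, CACATG was found in 3 (*EXPA1*, *EXPA10*, *EXPA11*), TGTCTC in 3 (*EXPA5*, *EXPA6*, *EXPA10*), TTGACC in 3 (*EXPA4*, *EXPA8*, *EXPA9*), CGTGTG in 2 (*EXPA1*, *EXPA6*) and the other motifs in none. Over the 27443 nuclear protein-coding genes, the shares with a match in the same window were 11.1% for CACATG, 10.9% for TGTCTC, 12.2% for TTGACC, 5.37% for CGTGTG, 6.49% for CACGTG, 4.16% for TGTCGG and 1.57% for CGTGCG. A match describes the letters of the window and does not show that a factor binds there.

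*EXPA1* is shown as well, because its window resembles that of *EXPA10*. It lies at chr1:26141476-26141725 on the plus strand, with the same marking.
EXPA1: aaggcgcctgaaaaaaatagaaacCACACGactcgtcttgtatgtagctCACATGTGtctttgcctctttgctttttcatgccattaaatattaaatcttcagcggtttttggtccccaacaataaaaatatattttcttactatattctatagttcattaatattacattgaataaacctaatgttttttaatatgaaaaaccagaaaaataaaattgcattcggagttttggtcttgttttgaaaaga
Both windows held the 8-base palindrome made of CACATG on both strands. The longest run of bases that 2 of the 10 windows had in common, over 45 pairs, was the 14 bases ctctttgctttttc of *EXPA1* and *EXPA10*, and the other 44 pairs shared runs of 7 to 12 bases.

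*EXPA8* (AT2G40610, chromosome 2, 16948791 to 16950705, minus strand) had 1258, 715 and 1244 normalized counts in *rtnlb16-1* under LD, against 15344, 26969.9 and 17820.4 in Col-0 under LD. Every *rtnlb16-1* library lay far below the lowest Col-0 library. The mean was 1072 ± 310 in *rtnlb16-1* and 20045 ± 6124 in Col-0 (SD, n = 3 each), a level 18.7-fold lower in *rtnlb16-1*. The log2 fold change was -4.23 (standard error 0.26, adjusted p = 1.13e-07, limma), and the p of a two-sided exact permutation test was 0.1, below which a comparison of 3 with 3 libraries cannot go.

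Under CLL this difference was not detected. *EXPA8* had 1344, 1383 and 1568 normalized counts in *rtnlb16-1* and 1293, 1896 and 1794 in Col-0, so that the groups overlapped. The log2 fold change was -0.20 with a 95% interval of -0.75 to 0.35 (adjusted p = 0.704, limma). The *rtnlb16-1* LD libraries were below all CLL libraries of both genotypes, and Col-0 under LD was the group that stood apart.

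*EXPA11* (AT1G20190, chromosome 1, 6998335 to 6999839, minus strand) had 246, 90.6 and 438 normalized counts in *rtnlb16-1* under LD, against 5549, 11504 and 8469 in Col-0. The groups did not overlap, and library 51 was the lowest. Its mean was 258 ± 174 in *rtnlb16-1* and 8507 ± 2978 in Col-0 (SD, n = 3 each), which is 32.9-fold lower in *rtnlb16-1* and the largest ratio among the 10 genes in this comparison. The log2 fold change was -5.24 (standard error 0.41, adjusted p = 1.20e-06, limma). Under CLL *EXPA11* had 556, 591 and 467 normalized counts in *rtnlb16-1* and 787, 769 and 706 in Col-0. Each *rtnlb16-1* library was below each Col-0 library, but the log2 fold change of -0.49 did not pass the test (95% interval -1.38 to 0.40, adjusted p = 0.581, limma).

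*EXPA10* (AT1G26770, chromosome 1, 9259432 to 9261313, plus strand) had 23834, 10505 and 16308 normalized counts in *rtnlb16-1* under LD, against 1018, 1624 and 998 in Col-0. The lowest *rtnlb16-1* library was well above the highest Col-0 library. The means were 16882 ± 6683 in *rtnlb16-1* and 1213 ± 355 in Col-0 (SD, n = 3 each), a 13.9-fold higher level in *rtnlb16-1*, and the log2 fold change was 3.76 (standard error 0.29, adjusted p = 9.42e-07, limma). *EXPA10* was also the 1 member called under CLL, with 4165, 4328 and 5211 normalized counts in *rtnlb16-1* and 1626, 949 and 1165 in Col-0. There the groups again did not overlap and the level was 3.66-fold higher in *rtnlb16-1* (log2 fold change 1.90, standard error 0.29, adjusted p = 0.00161, limma). The CLL call was lost without library 66, 69 or 70 (log2 fold change 1.72 to 1.94, adjusted p 0.0128 to 0.0147, limma) and with libraries 68 and 69 merged (1.95, adjusted p = 0.0134, limma).

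*EXPA15* (AT2G03090, chromosome 2, 916806 to 918671, minus strand) had 1877, 1181 and 2332 normalized counts in *rtnlb16-1* under LD, against 303, 484 and 343 in Col-0. The groups did not overlap. The means were 1797 ± 580.0 in *rtnlb16-1* and 377 ± 94.9 in Col-0 (SD, n = 3 each), a 4.77-fold higher level in *rtnlb16-1* (log2 fold change 2.22, standard error 0.34, adjusted p = 3.18e-04, limma). Under CLL it had 505, 491 and 571 normalized counts in *rtnlb16-1* and 602, 208 and 280.0 in Col-0. Library 65 lay above all 3 *rtnlb16-1* libraries, and the log2 fold change of 0.67 did not pass the test (95% interval -0.06 to 1.40, adjusted p = 0.317, limma).

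*EXPA5* (AT3G29030, chromosome 3, 11011262 to 11013451, minus strand) had 5057, 2358 and 4393 normalized counts in *rtnlb16-1* under LD, against 7015, 11165 and 8798 in Col-0. The groups did not overlap, and *EXPA5* was 2.28-fold lower in *rtnlb16-1* (log2 fold change -1.24, standard error 0.26, adjusted p = 0.00305, limma). The call was lost without library 48 (-1.07, adjusted p = 0.0146, limma) or 49 (-1.24, adjusted p = 0.0109, limma) and in a fit of only the 2 groups compared (adjusted p = 0.012, limma). Under CLL it had 2771, 2872 and 2379 normalized counts in *rtnlb16-1* and 4442, 4139 and 3936 in Col-0. These groups did not overlap either, and the log2 fold change of -0.64 passed the threshold only in a fit of those 2 groups (adjusted p = 0.009, against 0.207 in the fit over 4 groups, limma).

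*EXPA1* (AT1G69530), which acts in guard cells during stomatal opening, was the most abundant of the 10 genes. It had 30963, 20628.5 and 23545 normalized counts in *rtnlb16-1* under LD and 33344, 42929.8 and 38898 in Col-0. All *rtnlb16-1* libraries were below all Col-0 libraries, but the log2 fold change of -0.63 did not pass the test (95% interval -1.17 to -0.08, adjusted p = 0.0974, limma). Under CLL the order was the other way round, with 12835, 13120.3 and 20027 normalized counts in *rtnlb16-1* and 12066, 9327 and 9999.6 in Col-0. That difference, 0.53 on the log2 scale, did not pass the test either (95% interval -0.02 to 1.07, adjusted p = 0.297, limma).

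The other 4 genes, *EXPA3*, *EXPA4*, *EXPA6* and *EXPA9*, were called in neither light regime. *EXPA3* (AT2G37640), which enlarges leaves when overexpressed, had 2008, 816 and 1964 normalized counts in *rtnlb16-1* under LD and 1572, 3907 and 2585 in Col-0. These groups overlapped (log2 fold change -0.77, 95% interval -1.52 to -0.02, adjusted p = 0.145, limma). *EXPA6* (AT2G28950) had 8552, 3517 and 6746 normalized counts in *rtnlb16-1* under LD and 7186, 9419.8 and 8193 in Col-0, and its log2 fold change was -0.48 (95% interval -1.08 to 0.11, limma). Library 51 had the lowest count of its group in 9 of the 10 genes, *EXPA9* being the exception.

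*EXPA4* (AT2G39700) and *EXPA9* (AT5G02260) had the smallest genotype differences under LD, 0.23 (95% interval -0.28 to 0.74) and 0.27 (-0.32 to 0.87) on the log2 scale from limma. *EXPA4* ranged between 1333 and 2144 normalized counts in *rtnlb16-1* under LD and between 1284 and 1769.6 in Col-0. *EXPA9*, the least abundant of the 10 genes over the 4 groups, ranged between 254 and 361 in *rtnlb16-1* under LD and between 219 and 299 in Col-0. Under CLL the log2 fold changes of *EXPA3*, *EXPA4*, *EXPA6* and *EXPA9* lay between -0.51 and 0.36, and that of *EXPA4* changed sign without library 65.

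**Figure D1:**
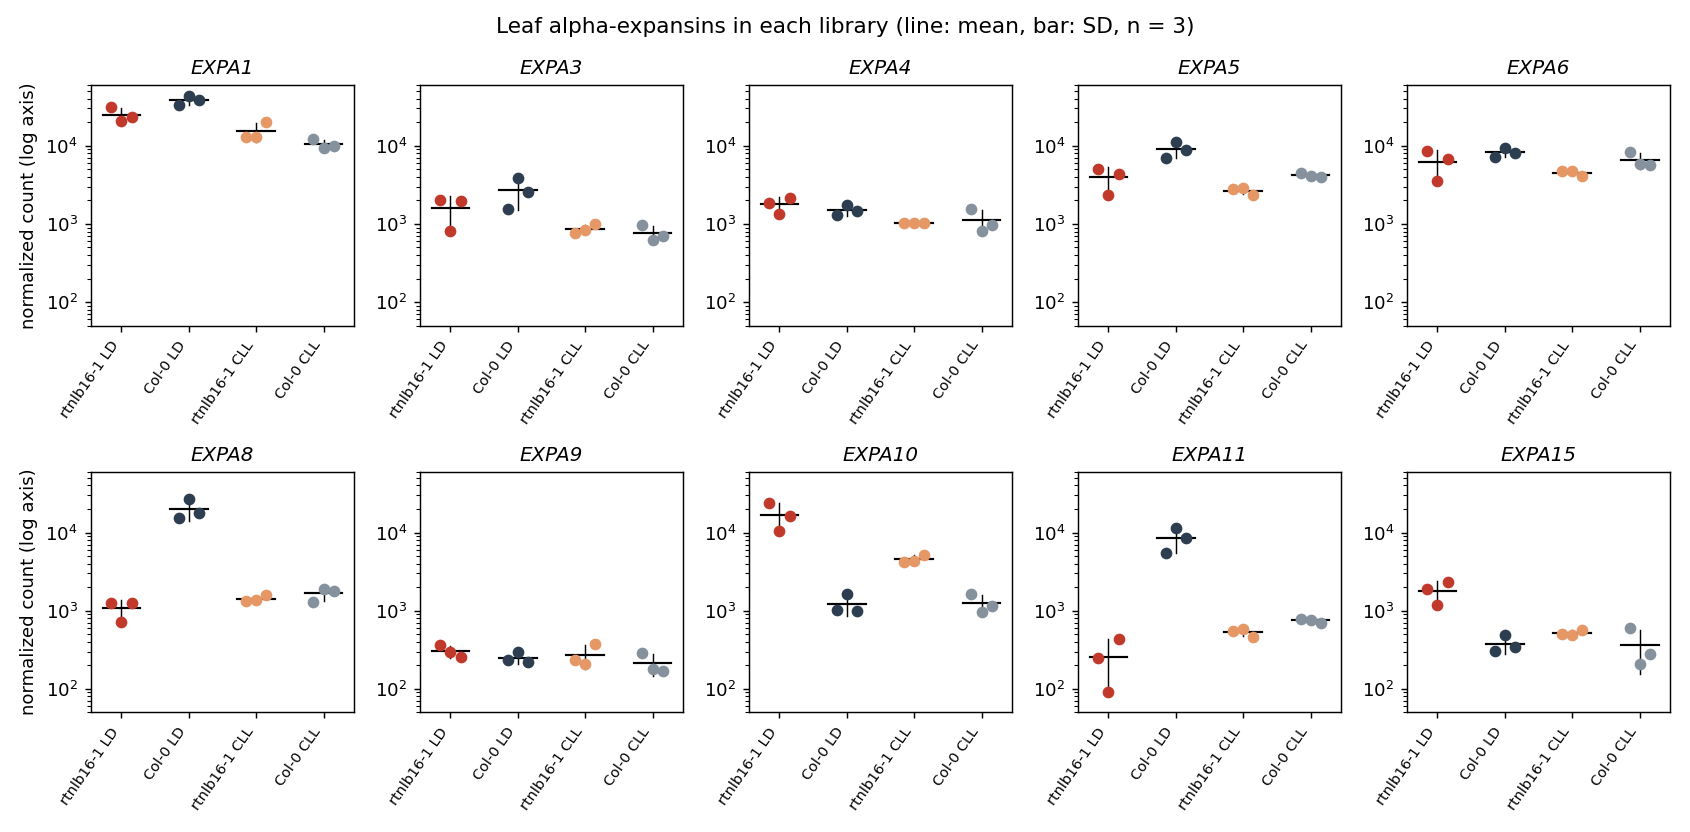
Normalized count of each of the 10 alpha-expansins in each library (log axis), with the 4 groups along the horizontal axis; points are libraries, lines are means and bars are SDs (n = 3). *EXPA8* and *EXPA11* stand high in Col-0 under LD and low in the other 3 groups, while *EXPA10* and *EXPA15* stand highest in *rtnlb16-1* under LD.

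**Figure D2:**
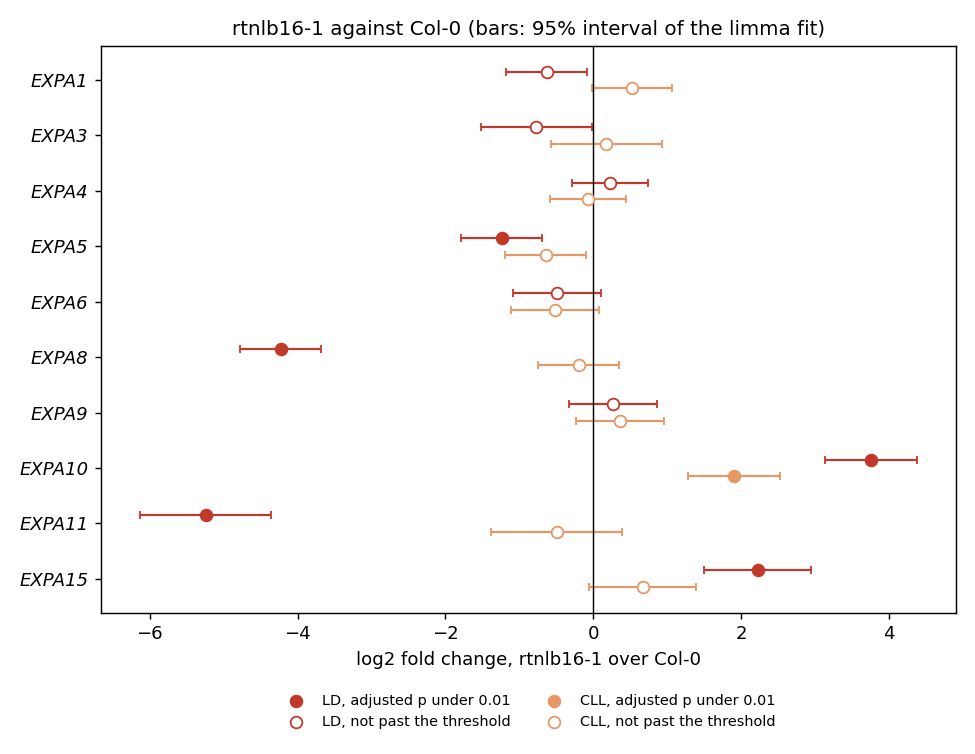
Log2 fold change of *rtnlb16-1* over Col-0 for the 10 genes under LD and under CLL, with 95% intervals of the limma fit, and filled points passed an adjusted p under 0.01. Under LD the values run between -5.24 for *EXPA11* and 3.76 for *EXPA10*, and under CLL between -0.64 for *EXPA5* and 1.90 for *EXPA10*.

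The comparison of LD with CLL within each genotype asked how the light regime changed the same genes. In Col-0, 4 of the 10 genes were higher under LD and none was lower, where 2.5% of all genes were called higher and 4.01% lower. In *rtnlb16-1*, 2 of the 10 were higher under LD and none was lower, where 2.37% of all genes were called higher and 3.48% lower. Lower at an unadjusted p under 0.05 were 1 gene in *rtnlb16-1* and 0 in Col-0 with limma, while edgeR called 1 lower in *rtnlb16-1* and 0 in Col-0, and DESeq2 called 0 in both genotypes. The totals over all genes called lower in *rtnlb16-1* were 1990 of 30388 with edgeR and 1745 of 20953 with DESeq2. With limma none of the 10 was called in both genotypes, while edgeR called *EXPA11* in both, higher under LD in Col-0 and lower in *rtnlb16-1*. The genes that limma called in Col-0 were *EXPA1*, *EXPA3*, *EXPA8* and *EXPA11*, and those called in *rtnlb16-1* were *EXPA10* and *EXPA15*. The median log2 fold change of LD over CLL was 0.60 in *rtnlb16-1*, against -0.09 over all genes, and 0.78 in Col-0, against -0.05 over all genes.

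In Col-0, *EXPA8* was 12.1-fold higher under LD than under CLL (log2 fold change 3.57, standard error 0.26, adjusted p = 3.17e-06, limma). *EXPA11* was 11.3-fold higher (3.43, standard error 0.41, adjusted p = 1.28e-04, limma). *EXPA1* was 3.67-fold higher (1.88, standard error 0.25, adjusted p = 2.83e-04, limma). In all 3 genes every LD library lay above every CLL library. *EXPA3* was 3.50-fold higher (1.73, standard error 0.35, adjusted p = 0.00466, limma), but this call was lost without any 1 of libraries 48, 49, 65, 66, 67 and 69 (log2 fold change 1.41 to 1.90, adjusted p 0.0115 to 0.0236, limma) and with libraries 68 and 69 merged (adjusted p = 0.0138, limma). *EXPA5* was 2.16-fold higher and just missed the threshold (1.08, adjusted p = 0.0119, limma), passing it without library 50 or 51 and with edgeR (adjusted p = 4.68e-04) and DESeq2 (adjusted p = 3.94e-04).

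In *rtnlb16-1*, *EXPA10* was 3.70-fold higher under LD than under CLL (log2 fold change 1.81, standard error 0.29, adjusted p = 9.67e-04, limma). *EXPA15* was 3.44-fold higher (1.73, standard error 0.34, adjusted p = 0.0041, limma). Every LD library was above every CLL library for both. In Col-0 the same genes had log2 fold changes of -0.04 (95% interval -0.66 to 0.58) and 0.17 (-0.56 to 0.90). With libraries 68 and 69 merged, neither *rtnlb16-1* call held (adjusted p = 0.0118 for *EXPA10* and 0.0303 for *EXPA15*, limma). The *EXPA10* call was also lost without library 69 (1.78, adjusted p = 0.0115, limma), and the *EXPA15* call without any 1 of libraries 50, 52, 68, 69 and 70 (1.51 to 1.79, adjusted p 0.0152 to 0.0307, limma).

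*EXPA8* and *EXPA11*, which rose most under LD in Col-0, had negative values in *rtnlb16-1*. The log2 fold change of LD over CLL was -0.46 for *EXPA8* (95% interval -1.01 to 0.09, adjusted p = 0.252, limma) and -1.32 for *EXPA11* (-2.21 to -0.43, adjusted p = 0.0469, limma). For both genes every *rtnlb16-1* LD library was below every *rtnlb16-1* CLL library. *EXPA11* passed the threshold with edgeR (-1.12, adjusted p = 0.00128) and without library 52 (-1.83, adjusted p = 0.00697, limma). *EXPA1* had 0.72 on the log2 scale in *rtnlb16-1*, which did not pass the test (adjusted p = 0.0743, limma).

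The difference between these responses was tested as the interaction of genotype and light. Of the 10 genes, 2 had a lower and none a higher interaction, where 0.533% of all genes were called lower and 0.395% higher. With limma 2 of the 10 were higher at an unadjusted p under 0.05, while edgeR called 2 of them higher and DESeq2 1. These tools called more genes in general, with 601 of 30388 higher for edgeR and 537 of 21542 for DESeq2. The members with a lower interaction were *EXPA8*, with a log2 value of -4.03 (standard error 0.36, adjusted p = 6.55e-05, limma), and *EXPA11*, with -4.75 (standard error 0.59, adjusted p = 6.93e-04, limma). Both calls held in all alternatives tried, with values of -4.20 to -3.76 for *EXPA8* and -5.27 to -4.14 for *EXPA11*. *EXPA10* had 1.85 (95% interval 0.98 to 2.73) and missed the threshold with limma (adjusted p = 0.0256), but passed it with edgeR (adjusted p = 4.48e-05), with DESeq2 (adjusted p = 3.99e-04) and without library 51 (2.16, adjusted p = 0.00572, limma). *EXPA15* had 1.56 (95% interval 0.53 to 2.58, adjusted p = 0.103, limma) and passed with edgeR alone (adjusted p = 6.23e-04). *EXPA1* had -1.16 (95% interval -1.93 to -0.39, adjusted p = 0.106, limma) and passed with DESeq2 alone (adjusted p = 0.00915). The median over the 10 genes was -0.34, against 0.00 over all genes.

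**Figure D3:**
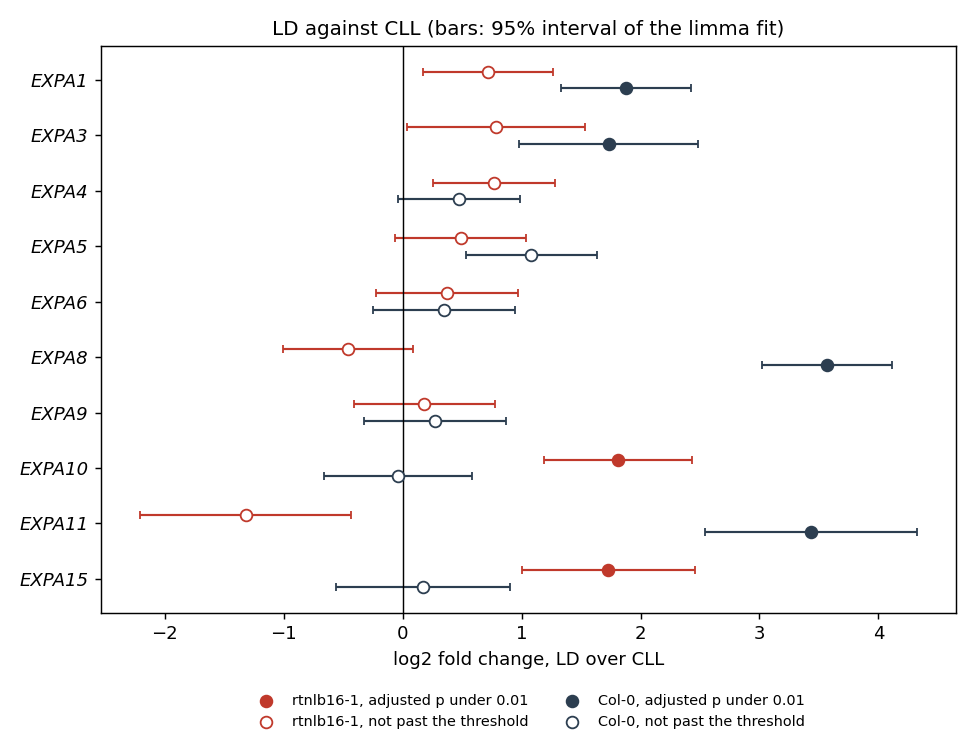
Log2 fold change of LD over CLL for the 10 genes in *rtnlb16-1* and in Col-0, with 95% intervals of the limma fit; filled points passed an adjusted p under 0.01. *EXPA8* and *EXPA11* have values of 3.57 and 3.43 in Col-0 and lie below 0 in *rtnlb16-1*, while *EXPA10* and *EXPA15* have values of 1.81 and 1.73 in *rtnlb16-1* and lie near 0 in Col-0.

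Levels of different genes were compared per kb of exon. The exons of the 10 genes span 1325 to 1783 bases, and none of the genes overlaps another annotated gene. The summed level of the 10 genes was 38182 ± 11154 (SD, n = 3) normalized counts per kb in *rtnlb16-1* under LD and 61499 ± 13052 (SD, n = 3) in Col-0 under LD, and the highest *rtnlb16-1* library, 49167, lay just below the lowest Col-0 library, 49459. The *rtnlb16-1* CLL libraries had a sum of 20749 ± 2800.4 and the Col-0 CLL libraries one of 18005 ± 2510 (SD, n = 3 each). In both genotypes every LD library had a higher sum than every CLL library.

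*EXPA1* held the first rank in all 4 groups, with 43.3% ± 5.53 of the summed level in *rtnlb16-1* under LD, 40.8% ± 3.56 in Col-0 under LD, 47.2% ± 5.87 in *rtnlb16-1* under CLL and 37.6% ± 0.92 in Col-0 under CLL (SD, n = 3 each). In *rtnlb16-1* under LD its libraries overlapped those of *EXPA10*. The genes after it differed between the groups. In *rtnlb16-1* under LD, *EXPA10* came second with 27.5% ± 3.03 of the sum, followed by *EXPA6* with 10.1% ± 1.59 and *EXPA5* with 7.12% ± 0.92. In Col-0 under LD, *EXPA8* came second with 24.3% ± 2.37, above all libraries of *EXPA11* (10.1% ± 1.56) and *EXPA5* (10.2% ± 0.24), which overlapped each other. *EXPA10* made up 1.25% ± 0.16 of the sum in Col-0 under LD, and *EXPA8* made up 2.13% ± 0.27 of it in *rtnlb16-1* under LD. *EXPA11* was last of the 10 in *rtnlb16-1* under LD, with 0.49% ± 0.32, where it overlapped *EXPA9*.

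Under CLL the second rank was shared by *EXPA10* (14.0% ± 0.20) and *EXPA6* (14.0% ± 2.71) in *rtnlb16-1*, whose libraries overlapped. In Col-0 it was held by *EXPA6* alone, with 22.8% ± 1.87, followed by *EXPA5* with 16.4% ± 1.41. *EXPA8* made up 5.23% ± 0.25 of the sum in *rtnlb16-1* and 7.16% ± 2.18 in Col-0. *EXPA9* was the least abundant gene in 3 of the 4 groups, *rtnlb16-1* under LD being the exception.

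**Figure D4:**
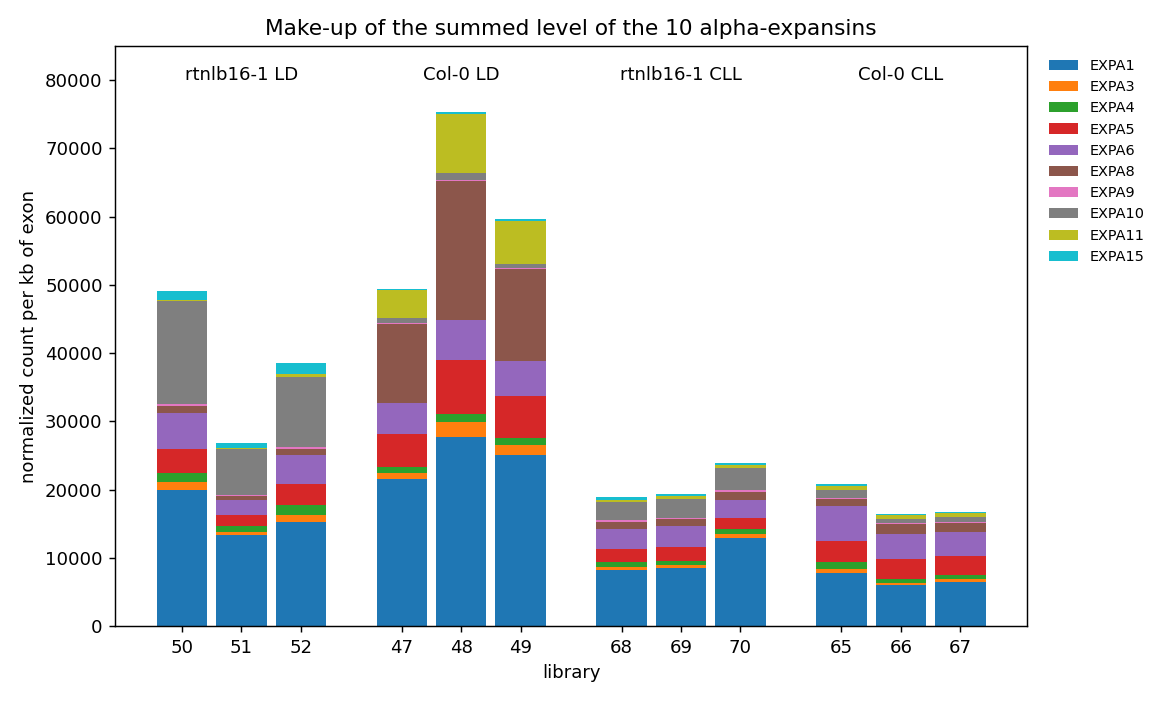
Summed level of the 10 alpha-expansins in each library, in normalized counts per kb of exon, divided by gene. *EXPA1* is the largest segment in every library, *EXPA10* is the second largest in *rtnlb16-1* under LD (27.5% on average) and *EXPA8* in Col-0 under LD (24.3% on average).

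Over the 12 libraries, the log2 values of *EXPA8* and *EXPA11* had a Pearson r of 0.96, those of *EXPA10* and *EXPA15* one of 0.93 and those of *EXPA1* and *EXPA3* one of 0.91. The r between *EXPA10* and *EXPA11* was -0.70. These are descriptions over libraries that form 4 groups, so that the differences between groups make up much of each value. The genes outside the expansin family whose log2 values followed the mean of the 10 genes most closely, among 14939 genes with a mean normalized count of at least 100, were *PIP1C* (AT1G01620), a plasma membrane aquaporin, with r = 0.98, and *TIP2* (AT3G26520), a tonoplast aquaporin, with r = 0.97. They were followed by *GRP2* (AT4G38680), which encodes a cold shock domain protein, with r = 0.97, *PAR2* (AT3G58850), a helix-loop-helix gene regulated by phytochrome, with r = 0.96, and AT1G76010 with r = 0.96. These genes were picked for their r. The mean they follow averages members that moved in opposite directions. Centred on 0, it was 0.47, -0.44 and 0.40 in *rtnlb16-1* under LD and 0.45, 1.12 and 0.70 in Col-0 under LD.

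Of the other 15 alpha-expansins, 10 were under 10 normalized counts in every library, among them *EXPA7* and *EXPA18*, which act in root hairs, and 5 had no read at all. Of the 10 that could be tested, 1 was higher and none lower in *rtnlb16-1* under LD with limma, with 1 lower at an unadjusted p under 0.05, *EXPA16*, which edgeR and DESeq2 also called lower. The shares of all genes tested that limma called under LD were 6.67% higher and 6.18% lower. Called lower there over all genes were 2495 of 30388 with edgeR and 2634 of 21542 with DESeq2. None of these 10 was called under CLL by limma, edgeR or DESeq2 or had an unadjusted p under 0.05. There limma called 0.846% of all genes higher and 0.731% lower. The gene called higher was *EXPA17* (AT4G01630), known from lateral root formation, with 12.9, 36.9 and 19.0 normalized counts in *rtnlb16-1* under LD and no read in Col-0 under LD. Against a floor of 3 reads per library it was at least 5.03-fold higher (adjusted p = 3.05e-04, limma). The summed level of these 15 genes, 567 to 726 normalized counts in *rtnlb16-1* under LD and 617 to 983 in Col-0 under LD, was far below the lowest sum of the 10 members, 24748 normalized counts in a Col-0 CLL library. *EXPA13*, the most abundant of the 15, had group means of 401 to 511 normalized counts. In each group its mean was above that of the member *EXPA9*, whose means were 212 to 303.

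Among the 6 beta-expansins, *EXPB3* (AT4G28250) was higher and *EXPB1* (AT2G20750) was lower in *rtnlb16-1* under LD. Over all genes tested, 6.67% were called higher and 6.18% lower there. *EXPB1* had 72.3, 39.6 and 81.0 normalized counts in *rtnlb16-1* and 1301, 1810.1 and 1078 in Col-0. These groups did not overlap, and *EXPB1* was 21.7-fold lower in *rtnlb16-1* (log2 fold change -4.45, adjusted p = 2.15e-07, limma), with an interaction of genotype and light of -3.18 (adjusted p = 0.00101, limma) that missed the threshold without library 69 (adjusted p = 0.0104) and with 68 and 69 merged (adjusted p = 0.0102). *EXPB3* was 2.61-fold higher (1.38, adjusted p = 0.00274, limma), a call lost without library 47, 49 or 52 (1.19 to 1.40, adjusted p 0.0103 to 0.0165, limma). Of the 4 expansin-like genes, *EXLB1* (log2 fold change -2.26, adjusted p = 9.23e-06, limma) and *EXLA1* (-2.20, adjusted p = 0.00891, limma) were lower under LD, against the same 6.18% of all genes. The *EXLA1* call was lost without any 1 of 10 libraries, all but 52 and 65, and with libraries 68 and 69 merged (adjusted p = 0.0218, limma). No gene of either group was called under CLL by limma, where 2 of each group were lower at an unadjusted p under 0.05. *EXPB1* (adjusted p = 1.88e-04 and 2.41e-04) and *EXLB1* (adjusted p = 0.00396 and 6.28e-04) passed there with edgeR and DESeq2, and *EXLA1* with edgeR (adjusted p = 0.00185). The totals over all genes called lower there were 687 of 30388 with edgeR and 717 of 21542 with DESeq2, against 0.731% with limma.

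Other genes of wall loosening changed in both directions. Xyloglucan endotransglucosylase/hydrolases (XTH) cut and rejoin the xyloglucan chains that tie cellulose microfibrils together. Of 33 such genes, 32 could be tested, and with limma 4 were higher and 6 lower in *rtnlb16-1* under LD, where 6.67% of all genes were called higher and 6.18% lower. Under CLL 0 were higher and 1 lower with limma, where 0.846% of all genes were called higher and 0.731% lower, while an unadjusted p under 0.05 was reached by 3 that were higher and 8 that were lower. *XTH6* (adjusted p = 0.00203 and 0.00187) and *XTH7* (adjusted p = 1.30e-04 and 0.00238) were also called lower under CLL with edgeR and DESeq2. The totals over all genes called lower there were 687 of 30388 with edgeR and 717 of 21542 with DESeq2. *XTH25* fell by 4.42 on the log2 scale under LD (adjusted p = 7.12e-05, limma) and fell by 3.99 under CLL (adjusted p = 8.80e-04, limma). It had only 4, 2 and 13 reads in the *rtnlb16-1* LD libraries. *XTH31* fell by 2.67 (adjusted p = 2.60e-06), *XTH6* by 2.58 (adjusted p = 8.08e-06) and *XTH7* by 2.34 (adjusted p = 3.90e-04) under LD in the limma fit. The 4 genes called higher were *XTH9* (log2 fold change 2.16), *XTH29* (2.02), *XTH16* (1.67) and *XTH24* (0.98). *XTH31* had 935, 694 and 845 normalized counts in *rtnlb16-1* under LD and 4792, 4028 and 7365 in Col-0 under LD, against 276 to 419 in all CLL libraries.

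The proton pumps of the plasma membrane (AHA) acidify the wall, the condition under which expansins act. Of 11 pump genes, 10 could be tested, and with limma 2 were higher and none lower in *rtnlb16-1* under LD, where 6.67% of all genes were called higher. At an unadjusted p under 0.05 with limma, 5 were higher and none was lower. *AHA1*, the most abundant pump gene, had 19854 to 21443 normalized counts in *rtnlb16-1* and 9747 to 14528 in Col-0. Its log2 fold change of 0.78 did not pass the threshold (adjusted p = 0.0176, limma). *AHA4* had 34.8 to 50.0 normalized counts in *rtnlb16-1* and 10.6 to 18.6 in Col-0 (log2 fold change 1.56, adjusted p = 0.00956, limma), and its call was lost without any 1 of 11 libraries, all but 47, and with libraries 68 and 69 merged (adjusted p = 0.0157, limma). *AHA9* was under 10 normalized counts in every library, and its call (2.30, adjusted p = 0.00941, limma) was lost with edgeR (adjusted p = 0.0571) and DESeq2 (adjusted p = 0.0597), with libraries 68 and 69 merged (adjusted p = 0.0167, limma), without any 1 of 10 libraries, all but 47 and 67, with a pseudocount of 5, with a robust prior and in a fit of only the 2 groups. None of the 8 genes of primary wall cellulose synthesis was called between the genotypes in either regime by limma, edgeR or DESeq2, nor had any an unadjusted p under 0.05 with limma.

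Lists of marker genes were summed in each library, since leaf samples can hold young leaves, shoot apices or flower buds. In bulk samples, more cells of a type and more RNA per cell cannot be told apart. Under LD, 6 of 9 shoot meristem markers were higher in *rtnlb16-1* (*STM*, *KNAT1*, *KNAT2*, *KNAT6*, *CUC2*, *CUC3*), and their summed level was 531 to 992 normalized counts in *rtnlb16-1* and 12.3 to 28.1 in Col-0. The defining genes *WUS* and *CLV3* were under 10 in every library. All 8 markers of dividing cells were higher, with sums of 1632 to 2144 in *rtnlb16-1* and 334 to 433 in Col-0. So were 6 of 7 flower markers, with sums of 338 to 795 in *rtnlb16-1* and 84.4 to 105.6 in Col-0. The other flower marker, *AG*, had 24.5 to 68.6 normalized counts in *rtnlb16-1* and 63.3 to 87.8 in Col-0. It was not called (log2 fold change -0.62, adjusted p = 0.371, limma). Over all genes tested, 6.67% were called higher and 6.18% lower under LD. Of 7 leaf photosynthesis markers, *RBCS1B*, a small subunit of Rubisco, was lower (log2 fold change -3.02, adjusted p = 3.50e-05, limma) and none was higher, with sums of 1169623 to 1864034 in *rtnlb16-1* and 2196540 to 3988774 in Col-0. None of 6 guard cell markers was called under LD by limma, 1 was lower at an unadjusted p under 0.05, edgeR called 2 and DESeq2 1 lower, and the sums were 694 to 1561 in *rtnlb16-1* and 970 to 1311 in Col-0. The totals over all genes called lower under LD were 2495 of 30388 with edgeR and 2634 of 21542 with DESeq2. Each of the 5 root hair markers was under 10 normalized counts in every library. The meristem, dividing cell, flower and photosynthesis sums did not overlap between the genotypes under LD. Their part in the results of the 5 alpha-expansins called there was not tested.

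Under CLL none of the meristem and none of the dividing cell markers was called between the genotypes by limma, with 3 of each list higher at an unadjusted p under 0.05, while edgeR called 1 meristem marker higher and DESeq2 none of either list. The totals over all genes called higher under CLL were 653 of 30388 with edgeR and 568 of 21542 with DESeq2. Shoot meristem markers summed to 507 to 535 in *rtnlb16-1* and 33.8 to 487 in Col-0, and dividing cell markers to 2303 to 2489 in *rtnlb16-1* and 707 to 2193 in Col-0. Of the flower markers, 5 of 7 were called higher, where 0.846% of all genes were called higher. Flower markers summed to 272 to 534 in *rtnlb16-1* and 38.3 to 69.3 in Col-0. Their part in the higher *EXPA10* level under CLL was not tested. In Col-0, 3 of 9 meristem markers and 3 of 8 dividing cell markers were called lower under LD than under CLL. Over all genes tested, 4.01% were called lower in that comparison. The part of these markers in the higher *EXPA8* and *EXPA11* levels of Col-0 under LD was not tested. The Col-0 CLL libraries 65, 66 and 67 had meristem sums of 487, 33.8 and 287. Their dividing cell sums were 2193, 707 and 1821, so that library 66 was the lowest in both. In the same order, *EXPA10* had 1626, 949 and 1165 normalized counts and *EXPA15* had 602, 208 and 280.0, both lowest in library 66. This was not particular to these genes. *EXPA1* (9327), *EXPA3* (632) and *EXPA4* (812) were lowest in library 66 too, while *EXPA5*, *EXPA6* and *EXPA9* were lowest in library 67. *EXPA8* had 1293, 1896 and 1794, and *EXPA11* had 787, 769 and 706. The part of the marker differences in these values was not tested.

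**Figure D5:**
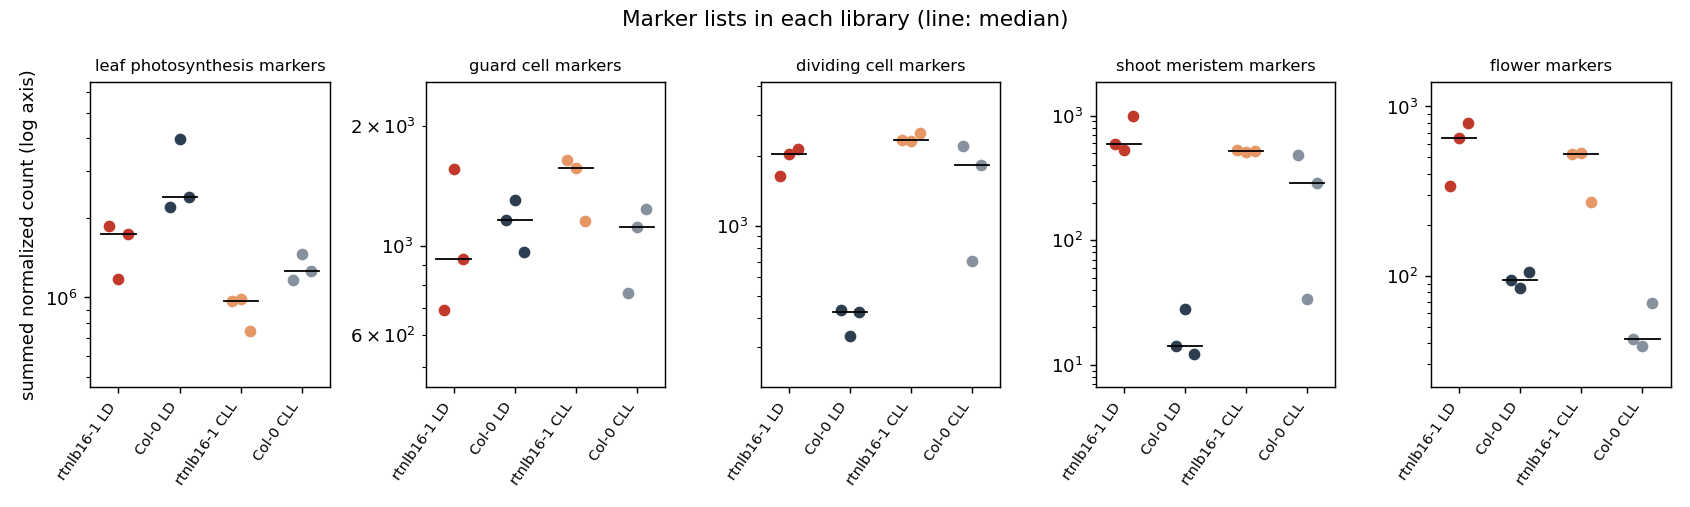
Summed normalized count of 5 marker lists in each library (log axes with separate scales), with the 4 groups along the horizontal axis and a line at each median. The meristem and dividing cell sums are lowest in Col-0 under LD, with 12.3 to 28.1 and 334 to 433, and 1 Col-0 CLL library, 66, lies at 33.8 and 707.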

How the data were processed

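RNA from leaves was sequenced in 12 libraries, 3 for each genotype and light regime. The authors aligned reads to TAIR10/Araport11 with STAR 2.5.0a and counted unambiguous reads per gene with HTSeq 0.6.1p1. The strand setting is not given in the sources used here. The values deposited by the authors are a signal, read counts divided by DESeq2 size factors. Dividing each column by its smallest step gave whole reads for 100% of values (relative tolerance 1e-06), 25954730 to 44747661 per library.

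Tests used limma 3.58.1 (R 4.3.3) on log2(normalized count + 1) over all 4 groups and the 30388 of 37336 genes with a read, with Benjamini-Hochberg adjustment and a threshold of 0.01. On the whole reads, edgeR 4.0.16 called 2337 genes higher and 2495 lower in *rtnlb16-1* under LD, where limma called 2027 and 1878, and DESeq2 1.42.0 called 2496 and 2634. Python 3.11.15 with pandas 2.3.3, numpy 2.4.6, scipy 1.17.1 and matplotlib 3.10.9 did the rest. The fits were tested on simulated data. In all, 24 other settings were tried.

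The members and the 12 lists (120 entries, of which 1 was dropped because its name did not match the annotation) were chosen with earlier results of these data known. Named were all members, *RTNLB16*, other expansins called between the genotypes, up to 4 genes of each pathway list called under LD and 2 under CLL by size of change, and the 5 genes most like the mean member pattern. *EXPA13*, *EXPA16*, *EXPA7*, *EXPA18*, *AHA1*, *XTH8*, *XTH9*, *XTH16*, *XTH24*, *XTH29* and the marker genes were named after their values were seen. Names, exon lengths and promoters came from RefSeq TAIR10.1, which held 37051 of the identifiers. Replicates were stated to be biological, and intervals cover the spread between these libraries.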

Additional observations from a re-analysis of the deposited data

Results flagged for a closer look

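For 5 of the genes named by rule, the difference between *rtnlb16-1* and Col-0 itself differed between LD and CLL. The measure was the interaction term of the limma fit at an adjusted p under 0.01. Among the 30388 genes tested, 120 had a higher and 162 a lower interaction. Among the leaf alpha-expansins these were *EXPA8*, with an interaction of -4.03 on the log2 scale, and *EXPA11*, with -4.75. The beta-expansin *EXPB1* had -3.18 and the xyloglucan endotransglucosylase/hydrolase *XTH31* had -2.87. Both were named for their LD difference, which is part of the interaction, so that their selection favoured these calls. *XTH8* (lower) and *XTH24* (higher) also had called interactions, but the rule did not name them. *RTNLB16* had 2.01 (adjusted p = 0.00491), and this call was lost without any 1 of libraries 47, 48, 52, 65, 68, 69 and 70 (adjusted p 0.0102 to 0.0237, limma) and with libraries 68 and 69 merged (adjusted p = 0.0234, limma).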

How the results depend on the processing

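Over the counts of called alpha-expansins, 220 of 238 values under the alternatives stayed within 1.5 times the main count. Under CLL the count of genes higher in *rtnlb16-1* was 0 to 1 when single libraries were left out, 0 with libraries 68 and 69 merged, and the count of lower genes was 1 in a fit of only the 2 groups compared. For LD over CLL in *rtnlb16-1* the count of higher genes was 0 to 2 with single libraries left out and 0 with 68 and 69 merged, and the count of lower genes was 0 to 1 with single libraries left out and 1 with edgeR or at an adjusted p under 0.05. The count of genes with a higher interaction was 0 to 1 with single libraries left out, 1 with DESeq2, 2 with edgeR and 1 at an adjusted p under 0.05. Signs turned only for values that had not passed the test. With single libraries left out, the CLL difference of *EXPA4* was -0.28 to 0.20, above 0 without 65. The LD over CLL value in Col-0 was -0.27 to 0.17 for *EXPA10*, above 0 without 47 (0.07), 49 (0.08) or 65 (0.17), and -0.15 to 0.61 for *EXPA15*, below 0 without 48 (-0.02) or 66 (-0.15) and with edgeR (-0.00080). The interaction was -0.24 to 0.40 for *EXPA6*, below 0 without 47, 50, 52, 65 or 70 (-0.07, -0.24, -0.07, -0.15 and -0.04), -0.33 to 0.17 for *EXPA9*, above 0 without 48, 52, 66, 67 or 70 (0.04, 0.03, 0.0055, 0.06 and 0.17), and -1.09 to 0.20 for *XTH25*, above 0 without 51. The cause of these changes was not tested. No member changed sign under another scaling. No paired analysis was possible because the library numbers are unique to a group. With 3 libraries a group, an exact permutation test cannot go below p = 0.1.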
